A study of Homo sapiens with 12 samples.

Results

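BCHE and 8 further genes of acetylcholine breakdown, choline uptake and acetylcholine reception were followed across control (shCtrl) and knockdown (shSigma) DU145 cells. The 9 members were taken from a table of 28747 gene identifiers. They comprise the cholinesterases BCHE and ACHE, the membrane anchor PRIMA1, the choline transporters SLC44A1 and SLC44A2, the choline kinase CHKA, the nicotinic receptor subunits CHRNA5 and CHRNA7 and the muscarinic receptor CHRM3. The set was picked because of the size of the BCHE rise after knockdown in these same libraries. The BCHE values are therefore given as a description with no test, and the 8 other members were chosen with earlier results of these libraries known.

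DU145 is an established human prostate cancer line that lacks the androgen receptor and models castration-resistant disease. The cells carried either the control hairpin (shCtrl) or the knockdown hairpin (shSigma), delivered by lentivirus and kept under puromycin, and the labels do not say which of the study's knockdown hairpins was sequenced. Each line was grown as an adherent culture or as tumor spheres, which form at low density in serum-free medium without attachment, and poly(A) RNA of 3 replicates in each of the 4 groups was sequenced. The replicates are labelled independent, and the sources used here do not say whether they came from separate transductions, so p-values may measure only the spread between cultures of the same stable lines.

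Acetylcholine is made from choline and acetyl-CoA by choline acetyltransferase and acts on nicotinic receptors, which are ion channels, and on muscarinic receptors, which signal through G proteins. Acetylcholinesterase and butyrylcholinesterase split it into acetate and choline. Butyrylcholinesterase, the product of BCHE, is made mainly by the liver and circulates in plasma. It also hydrolyses other esters, among them the choline ester succinylcholine and the acylated form of the hormone ghrelin. In tumor cells choline can be taken up by carriers such as those of the SLC44 family, and choline kinase phosphorylates it on its way to phosphatidylcholine.

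The promoters of the members differed in base composition. The 250 bases before each start site are shown for both cholinesterases, which were both low in control cells and far apart after knockdown, and for SLC44A2, the member with the largest tested change after knockdown. They were taken from RefSeq on GRCh38.p14 and read 5′ to 3′ on the strand of the gene, and capitals mark CpG dinucleotides. The BCHE window lies at chr3:165837424-165837673 on the minus strand, the window of the second listed ACHE start at chr7:100895889-100896138 on the minus strand and that of the first SLC44A2 start at chr19:10602205-10602454 on the plus strand.
BCHE: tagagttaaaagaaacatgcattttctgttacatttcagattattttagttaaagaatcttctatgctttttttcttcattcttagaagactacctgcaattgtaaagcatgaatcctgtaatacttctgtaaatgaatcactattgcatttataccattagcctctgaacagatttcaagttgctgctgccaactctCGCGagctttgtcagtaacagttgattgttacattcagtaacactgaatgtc
ACHE: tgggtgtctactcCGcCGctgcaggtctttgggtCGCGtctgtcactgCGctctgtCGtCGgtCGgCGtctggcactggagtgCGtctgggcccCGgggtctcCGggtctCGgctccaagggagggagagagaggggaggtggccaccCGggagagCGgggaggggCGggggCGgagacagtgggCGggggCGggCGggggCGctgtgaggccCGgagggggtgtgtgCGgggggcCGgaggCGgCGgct
SLC44A2: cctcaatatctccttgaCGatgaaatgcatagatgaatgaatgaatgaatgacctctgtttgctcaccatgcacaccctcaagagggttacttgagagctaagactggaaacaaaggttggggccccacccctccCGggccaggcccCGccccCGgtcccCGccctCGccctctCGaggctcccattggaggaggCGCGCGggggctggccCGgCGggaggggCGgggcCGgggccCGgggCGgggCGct

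The BCHE window held 2 CpG dinucleotides and 33.2% G and C. Over 35114 windows of the same length from 27303 genes the median was 11 CpG and 58% G and C, and 22.9% of windows held no more CpG than that of BCHE. The letters TATAAA, searched on both strands, occurred in the BCHE window and in 10.7% of all windows. The letters CCAAT, present in 32.0% of windows, and GGGCGG, present in 42.6%, were not found in it. The 3 ACHE windows held 19, 26 and 18 CpG, and those of SLC44A2 held 17 and 25. SLC44A1 had 30, PRIMA1 had 30, CHRNA7 had 31 and 35, and CHRM3 had 15. BCHE was therefore the member with the fewest, and the others with a window all lay above the median of all windows. CHKA and CHRNA5 had no window, so 7 of the 9 members were matched.

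Library totals were 23668070 to 26957777 counts in adherent shCtrl, 19542016 to 22006759 in adherent shSigma, 16472722 to 19164645 in tumor sphere shCtrl and 18626387 to 19698970 in tumor sphere shSigma cells. Levels are given as CPM, the counts of a gene relative to the library total, after scaling of the 12 libraries by the trimmed mean of M values. The androgen receptor and its targets KLK2 and KLK3 summed to at most 0.0964 CPM in any library. The 5 epithelial markers KRT8, KRT18, KRT19, EPCAM and CDH1 summed to 878 to 964 CPM in adherent shCtrl, 1140 to 1452 in adherent shSigma, 2284 to 2348 in tumor sphere shCtrl and 896 to 954 CPM in tumor sphere shSigma cells. The sum joined markers that went opposite ways. EPCAM and CDH1 had lower means in shSigma than in shCtrl cells of the same culture, while the 3 keratins were higher in adherent shSigma than in adherent shCtrl cells. Mean EPCAM was 235 and 30.9 CPM in adherent shCtrl and shSigma cells and 613 and 61.9 CPM in the corresponding spheres. CDH1 stood at 26.8 to 26.9 and 10.7 to 13.9 CPM in adherent shCtrl and shSigma libraries, and its sphere means were 726 and 27.8 CPM.

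BCHE (ENSG00000114200) spans chr3:165772904-165837462 on the minus strand of GRCh38. It was close to silent in control cells and among the more abundant transcripts after knockdown. The adherent shCtrl libraries held 41, 27 and 21 BCHE counts, or 1.57, 1.14 and 0.828 CPM. The adherent shSigma libraries held 6641, 5921 and 7421 counts, or 316, 303 and 358 CPM. The groups were far apart, with no library of either near the other. In tumor spheres the shCtrl libraries held 9, 2 and 9 counts, or 0.527, 0.110 and 0.453 CPM. The tumor sphere shSigma libraries held 9482, 8633 and 8988 counts, or 478, 457 and 476 CPM. Here too every shSigma library lay above every shCtrl library by more than 2 orders of magnitude.

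The mean BCHE level was 276-fold higher in adherent shSigma than in adherent shCtrl cells, and single pairs of libraries gave 193-fold to 432-fold. In tumor spheres the means differed 1294-fold and single pairs 868-fold to 4329-fold. The fitted log2 fold change (n = 3 against 3) was 8.03 for adherent cultures, and 7.80 to 8.36 with a library left out. For spheres it was 10.31, and 9.89 to 10.63 with a library left out. By fitted log2 fold change BCHE ranked 5 of 13764 genes in adherent cells, after DSG3 (12.53), LINC02266 (9.19), IQCA1 (9.08) and DNAJC15 (8.31). Among tumor sphere libraries it ranked 1 of 13774, ahead of DNAJC15 (9.40) and LINC02266 (8.71). DSG3 had 0 counts and DNAJC15 at most 1 count in every adherent shCtrl library, so that their fitted values depend on the prior count, and the ranks restate the choice of BCHE. By the difference in CPM, which favors abundant genes, it ranked 41 when adherent and 23 as spheres.

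The precision of the fold was set by the control libraries. The 3 adherent shCtrl libraries together held 89 BCHE counts, a pooled level of 1.19 CPM with an exact Poisson 95% interval of 0.952 to 1.46. The 3 tumor sphere shCtrl libraries together held 20 counts, a pooled 0.363 CPM with an interval of 0.222 to 0.561. The shSigma groups held 19983 and 27103 counts, so that their intervals were narrow, at 322 to 331 CPM in adherent cells and 465 to 476 CPM in tumor spheres. These intervals cover counting error only. The shCtrl intervals of the cultures did not overlap, and neither did the shSigma intervals.

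BCHE differed between cultures in opposite directions in the control and knockdown lines. In shCtrl cells the mean level was 3.25-fold lower in tumor spheres (0.110 to 0.527 CPM) than in adherent cells (0.828 to 1.57 CPM). In shSigma cells it was 1.44-fold higher in tumor spheres (457 to 478 CPM) than in adherent cells (303 to 358 CPM). The log2 rise after knockdown was larger in tumor spheres than in adherent cells by 2.22 in the fit of all 12 libraries, which is given without a test. Both the lower control level and the higher knockdown level in spheres enter that difference. The former rests on 20 counts pooled over the tumor sphere shCtrl libraries. These levels also entered the rise for which BCHE was chosen, so the differences between cultures are description only.

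**Figure D1:**
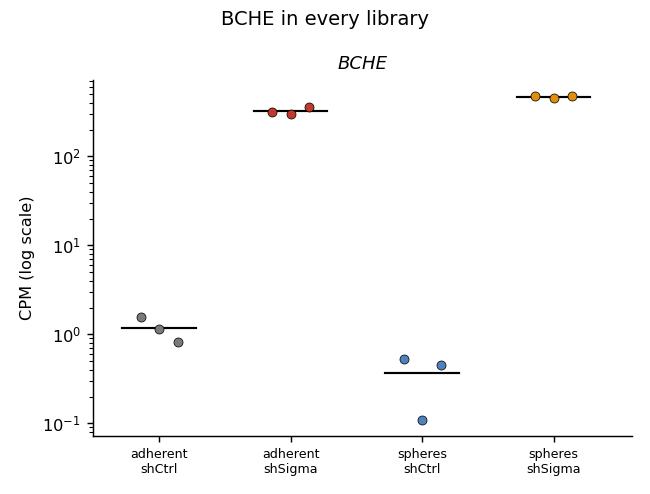
Each point is 1 library of the group named on the horizontal axis, and the horizontal line is the group mean (n = 3). The vertical axis is CPM on a logarithmic scale. BCHE lies at 0.110 to 1.57 CPM in the 6 shCtrl libraries and at 303 to 478 CPM in the 6 shSigma libraries.

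In libraries of mixed cells a change in the number of expressing cells and a change in RNA per cell cannot be told apart. Liver is the main source of plasma butyrylcholinesterase, and the hepatocyte markers were therefore read beside it. ALB, APOA1, TTR and SERPINA1 summed to 0.803 to 1.11 CPM in adherent shCtrl and 3.48 to 5.09 CPM in adherent shSigma cells. In tumor spheres they summed to 2.07 to 2.43 CPM in shCtrl and 4.03 to 4.55 CPM in shSigma cells. SERPINA1, an inhibitor of neutrophil elastase, made up nearly all of that sum, and ALB, which defines hepatocytes, had at most 7 counts in any library. The BCHE gene overlaps LINC01322, a noncoding gene on the opposite strand that was not analysed here. The use of strand in counting is not given in the sources used here, so reads from the 2 genes could not be separated.

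The tested genes around BCHE showed no rise of that size. Within 2 Mb of either end the table held 11 annotated genes, of which 2 had no count in any library and 3 were tested. ZBBX, the nearest tested gene, lies 1402381 bases away and fell in both cultures by edgeR, with a log2 fold change of -2.01 in adherent cells (adjusted p = 0.0013) and of -1.05 in spheres (adjusted p = 0.026). It passed the filter on low counts only through the shCtrl groups, so nothing is drawn from its calls. Its means were 1.34 and 0.342 CPM in adherent shCtrl and shSigma cells and 0.652 and 0.314 CPM in the corresponding spheres. PDCD10, a regulator of endothelial junctions and kinase signaling, also fell (-0.41, adjusted p = 0.019 and -0.31, adjusted p = 0.0013, edgeR). SERPINI1, a serine protease inhibitor, had -0.35 (adjusted p = 0.11) in adherent cells and rose by 0.28 (adjusted p = 0.017) in tumor spheres by edgeR. On the other side of BCHE no gene within that distance was tested, and SLITRK3, the nearest gene of the table there, had at most 3 counts in a library.

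The genes whose levels over the 12 libraries most resembled those of BCHE were sought among 14147 genes by the root mean square distance between log2 CPM values after each gene was centred. DSG3, a desmosomal cadherin of stratified epithelium, was closest at a distance of 1.26. It had 0 counts in all adherent shCtrl libraries and 2 to 3 in tumor sphere shCtrl libraries, against 597 to 779 in adherent shSigma and 543 to 626 in tumor sphere shSigma libraries. RAC2, a small GTPase known from blood cells, followed at 1.58, with means of 0.134 and 19.9 CPM in adherent shCtrl and shSigma cells and 0.0336 and 8.98 CPM in tumor sphere shCtrl and shSigma cells. NMRAL2P (1.79), a transcribed pseudogene, DNAJC15 (1.83), a mitochondrial co-chaperone, and MMP24 (1.92), a membrane-bound matrix metalloproteinase, came next. Each of the 5 was low in both control groups and higher in both knockdown groups, which restates how they were sought. MMP24 was the most abundant of them, at 1.27 and 49.4 CPM in adherent shCtrl and shSigma cells and at 1.04 and 66.9 CPM in tumor sphere shCtrl and shSigma cells. None of them lies within 2 Mb of BCHE. With a prior count of 0.5 in place of 2 in the log2 CPM, 3 of the 5 stayed among the closest 5.

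ACHE, the principal enzyme of acetylcholine breakdown at synapses, stayed near the detection limit. Its counts were 1, 1 and 3 in adherent shCtrl and 2, 2 and 3 in adherent shSigma cells, too few for a test. In tumor spheres they were 17, 11 and 17 in shCtrl and 21, 14 and 7 in shSigma cells. The ranges of the sphere groups overlapped, and the log2 fold change of -0.17 was not called (95% interval -0.90 to 0.56, adjusted p = 0.71, edgeR), an interval that leaves room for moderate change in either direction. The culture made the larger difference. Pooled ACHE CPM were 12.3-fold higher in tumor spheres than in adherent cells in shCtrl (exact 95% counting interval 4.89 to 39.6) and 6.38-fold higher in shSigma (2.84 to 16.8). The shCtrl difference passed the test (adjusted p = 5.3e-04, edgeR), which ACHE entered only through its sphere counts and left once a minimum of 10 counts applied to each library, and the shSigma difference was too low in counts to be tested. PRIMA1, which anchors both cholinesterases in the membrane, had 0 counts in all 12 libraries, where 3 counts would be 0.115 to 0.176 CPM.

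Levels per kilobase of exon put the members on a common scale. In adherent shCtrl cells the order of mean CPM per kilobase was SLC44A2 (16.9), SLC44A1 (16.7), CHKA (9.01), CHRNA5 (8.45), BCHE (0.385) and ACHE (0.0163), and the ranges of mean ± SD overlapped for SLC44A2 and SLC44A1 and for CHKA and CHRNA5. In adherent shSigma cells BCHE led at 106 ± 9.31 CPM per kilobase (SD, n = 3), and SLC44A2 followed at 17.8. In tumor sphere shCtrl cells SLC44A2 led at 47.1, and ACHE (0.201) and BCHE (0.118) had overlapping ranges of mean ± SD at the low end. In tumor sphere shSigma cells BCHE led again at 153 ± 3.71 CPM per kilobase (SD, n = 3), ahead of SLC44A2 at 23.6. Among 26153 genes with an exon length, BCHE moved from rank 12253 to 225 in adherent cells and from 14135 to 124 in tumor spheres. BCHE took 0.0319% of all counts in adherent shSigma and 0.0475% in tumor sphere shSigma cells.

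Both choline transporters were abundant, and they did not behave alike. SLC44A1 (CTL1), a choline carrier of the plasma membrane and mitochondria, stood at 213, 209 and 198 CPM in adherent shCtrl and 198, 190 and 223 CPM in adherent shSigma cells. These groups overlapped (log2 fold change -0.09, 95% interval -0.23 to 0.05, adjusted p = 0.34, edgeR). The sphere libraries held 161, 167 and 151 CPM in shCtrl and 164, 185 and 187 CPM in shSigma cells, still overlapping. The log2 fold change of 0.16 was called at an adjusted p of 0.048 by edgeR. The call was lost by DESeq2 (0.071), with upper-quartile scaling (0.073) and with at least 10 counts required in every library (0.056). A replicate block (0.068) and 1 fit of all 12 libraries (0.090) lost it too. So did leaving out shSigma replicate 2 (0.17), shSigma replicate 3 (0.17), shCtrl replicate 1 (0.062) or shCtrl replicate 3 (0.15). The difference between cultures in the knockdown effect on SLC44A1 was 0.18 (adjusted p = 0.22, edgeR), and 0.32 (adjusted p = 0.018) without adherent shSigma replicate 3. In shCtrl cells it was lower in spheres than in adherent cells (log2 fold change -0.37, adjusted p = 0.0015, edgeR), while shSigma cells gave -0.16 (adjusted p = 0.088).

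SLC44A2 (CTL2), a choline carrier that is also known as a neutrophil surface antigen, depended on both culture and hairpin. It stood at 81.2, 83.3 and 86.6 CPM in adherent shCtrl and 89.4, 85.1 and 90.5 CPM in adherent shSigma cells. The adherent groups overlapped, with a log2 fold change of 0.02 (95% interval -0.10 to 0.13, adjusted p = 0.84, edgeR). In tumor spheres it stood at 239, 230 and 231 CPM in shCtrl and 117, 118 and 116 CPM in shSigma cells. Every knockdown sphere library lay far below every control sphere library, where 66.8% of all genes tested in spheres had groups that did not overlap. The fall was 2.00-fold (log2 fold change -0.998, SE 0.05, adjusted p = 1.2e-08, edgeR). The knockdown effect differed between cultures by -1.07 on the log2 scale (adjusted p = 2.97e-07, edgeR interaction). Spheres had more SLC44A2 than adherent cells in both lines, by 1.48 in shCtrl (adjusted p = 8.6e-07) and 0.43 in shSigma cells (adjusted p = 3.0e-04) on the log2 scale by edgeR. Of the epithelial markers, CDH1 and EPCAM were likewise highest in tumor sphere shCtrl cells, while KRT8, KRT18 and KRT19 were highest in adherent shSigma cells (means of 413, 501 and 359 CPM). The part of these markers in the SLC44A2 pattern was not tested.

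CHKA, the kinase that traps choline as phosphocholine, was higher after knockdown in tumor spheres. It stood at 28.4, 27.9 and 28.7 CPM in shCtrl and 34.5, 39.0 and 36.5 CPM in shSigma spheres, with no overlap, which held for 66.8% of all genes tested in spheres (log2 fold change 0.37, SE 0.07, adjusted p = 0.0010, edgeR). In adherent cells it stood at 35.0, 33.9 and 35.9 CPM in shCtrl and 40.5, 39.3 and 38.6 CPM in shSigma cells. The adherent libraries did not overlap on this scale either, which held for 57.9% of all genes tested in that comparison, yet the log2 fold change of 0.12 was not called (95% interval -0.03 to 0.26, adjusted p = 0.24, edgeR). It was called, at 0.18, where all 12 libraries were fitted together (adjusted p = 0.039). The effects did not pass the test of a difference between cultures (0.20, adjusted p = 0.15). Between cultures CHKA was lower in spheres in shCtrl cells (-0.30, adjusted p = 0.0083, edgeR), and shSigma cells gave -0.09 (adjusted p = 0.36).

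CHRNA5, an accessory subunit of neuronal nicotinic receptors, fell after knockdown in both cultures. It stood at 34.1, 28.8 and 29.0 CPM in adherent shCtrl and 17.5, 17.1 and 19.9 CPM in adherent shSigma cells. Spheres held 37.1, 37.8 and 36.8 CPM in shCtrl and 25.2, 24.3 and 25.7 CPM in shSigma cells. Neither culture showed overlap between the groups, which held for 57.9% of all genes tested in adherent cells and 66.8% in spheres. By edgeR the log2 fold change was -0.82 with the cells attached (SE 0.11, adjusted p = 5.5e-04) and -0.57 as spheres (SE 0.07, adjusted p = 1.8e-05), and the difference between them was 0.19 (95% interval -0.05 to 0.42, adjusted p = 0.29). CHRNA5 rose from adherent cells to spheres in shSigma cells (0.49, adjusted p = 0.0016, edgeR). In shCtrl cells the difference of 0.28 (adjusted p = 0.029) was lost when adherent shCtrl replicate 2 (0.12) or 3 (0.14), or tumor sphere shCtrl replicate 1 (0.13), 2 (0.076) or 3 (0.13), was left out. CHRNA5 (chr15:78565520-78595269) overlaps CHRNA3 on the opposite strand, which had at most 2 counts in a library.

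The other receptors among the members were hardly detected. CHRNA7, which forms homomeric nicotinic receptors, had at most 5 counts in a library and was not tested. The pooled knockdown ratio in adherent cells was 1.84 with an exact 95% counting interval of 0.584 to 6.27. CHRFAM7A, a partial copy with which it can share reads, had at most 3 counts. CHRM3, the muscarinic receptor of smooth muscle and glands, had 0 counts in all 12 libraries, the same limit as for PRIMA1. In all, the test covered 4 of the 8 members other than BCHE in adherent cultures and 5 in spheres, and 2 had no count in any library.

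The members were set in a list of 60 genes of acetylcholine synthesis, breakdown, choline transport and use, receptors and receptor modulators. Of these, 8 had no count in any library, 27 had at most 10 counts in every library and 32 were tested in at least 1 knockdown comparison. Without BCHE, 12 of 26 tested list genes passed the test in adherent cells, where 50.0% of all 13764 genes tested did. Of the 26, 6 were called higher and 6 lower, against 22.3% of all genes higher and 27.7% lower, and 3 of the called genes (11.5% of the 26) exceeded a log2 fold change of 1 in size, against 13.7% of all genes. Among spheres 20 of 29 passed, where 61.1% of all 13774 genes did. Of the 29, 9 were called higher and 11 lower, against 30.2% of all genes higher and 30.9% lower, and 8 of the called genes (27.6% of the 29) exceeded a log2 fold change of 1 in size, against 13.1%. The median log2 fold change of the tested list genes was 0.12 in adherent cells and -0.17 in spheres, beside -0.014 and 0.0015 for all genes. The knockdown effect differed between cultures for 10 of 29 list genes, where 28.4% of all genes did. Of the 29, 2 were called with a higher and 8 with a lower value in spheres, against 12.7% and 15.6% of all genes. Between spheres and adherent cells 18 of 29 were called in shCtrl, where 53.7% of all genes were called, and 11 of 26 in shSigma cells, where 47.1% were called. With a log2 fold change over 1 in size, these were 10 (34.5%) and 4 (15.4%), beside 15.8% and 9.32% of all genes. The shares called without regard to size lay near those of all genes. The shares past that size were higher than those of all genes in spheres and between cultures, but they include genes that passed the filter on low counts only through the group where they were high (CHRM4, LYPD1 and LYPD6B among the 8 in spheres), and nothing is drawn from them about the list.

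Synthesis and release of acetylcholine could not be measured. CHAT, the choline acetyltransferase gene, had at most 1 count in a library. SLC18A3, the vesicular transporter, and SLC5A7, the high-affinity choline transporter of neurons, had 0 counts in all libraries. Neuronal and neuroendocrine markers summed to 1.05 to 3.92 CPM over all libraries, nearly all of it SYP, while CHGA and INSM1 had no count.

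Among the other choline transporters, those of the SLC44 family fell in tumor spheres as SLC44A2 did. SLC44A3 stood at 23.5, 25.1 and 24.5 CPM in shCtrl and 11.4, 12.3 and 11.9 CPM in shSigma spheres (log2 fold change -1.04, adjusted p = 7.5e-07, edgeR). SLC44A5 stood at 5.44, 6.46 and 6.40 CPM in shCtrl and 2.02, 2.44 and 2.70 CPM in shSigma spheres (log2 fold change -1.36, adjusted p = 1.5e-05, edgeR). In both genes the sphere groups did not overlap, which held for 66.8% of all genes tested in spheres. In adherent cells neither was called, with log2 fold changes of -0.13 (adjusted p = 0.37) and 0.17 (adjusted p = 0.33) by edgeR. SLC44A4 had no count in any library. FLVCR2, a choline carrier known from the blood-brain barrier, went the other way and rose in both cultures. It stood at 1.27, 1.69 and 1.89 CPM in adherent shCtrl and 4.71, 6.35 and 5.55 CPM in adherent shSigma cells (log2 fold change 1.71, adjusted p = 3.2e-04, edgeR). The sphere values were 4.86, 4.41 and 4.48 CPM in shCtrl and 12.6, 12.1 and 13.7 CPM in shSigma cells (log2 fold change 1.48, adjusted p = 4.4e-07, edgeR). Of 6 tested transport genes, 2 passed the test in adherent cultures (1 higher, 1 lower) and 5 in spheres (2 higher, 3 lower). Of all genes tested 50.0% and 61.1% passed, and 6 genes are too few to set these shares apart.

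Genes that use choline or release it from lipid changed in both directions. Of 12 tested, 6 passed in adherent cultures (3 higher, 3 lower) and 8 in spheres (5 higher, 3 lower), beside 50.0% and 61.1% of all genes tested, and none exceeded a log2 fold change of 1 in either direction. CHPT1, which makes phosphatidylcholine in the last step of the Kennedy pathway, fell in adherent cells (log2 fold change -0.57, adjusted p = 9.6e-04) and had -0.07 (adjusted p = 0.33) in tumor spheres by edgeR. PLD1, a phospholipase D that frees choline from phosphatidylcholine, rose in both, by 0.39 when adherent (adjusted p = 0.013) and by 0.93 as spheres (adjusted p = 1.6e-06, edgeR). GPCPD1, which cleaves glycerophosphocholine, was picked out after its values were seen because it was called in opposite directions. It stood at 15.4, 13.7 and 11.8 CPM in adherent shCtrl and 18.5, 18.1 and 19.8 CPM in adherent shSigma cells. The spheres held 114, 115 and 102 CPM in shCtrl and 68.1, 81.3 and 79.3 CPM in shSigma cells. The log2 fold change was 0.40 when adherent (adjusted p = 0.031) and -0.54 as spheres (adjusted p = 8.4e-05, edgeR). The adherent call was lost with a replicate block (0.086) and without shSigma replicate 3 (0.057) or shCtrl replicate 3 (0.061). GPCPD1 was also 3.01 higher on the log2 scale in spheres than in adherent shCtrl cells (adjusted p = 7.5e-07, edgeR).

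Receptor genes beyond the members were mostly silent. Of 17 nicotinic genes, 2 were tested in adherent cultures and 4 in spheres. CHRNA9, a subunit known from hair cells and immune cells, had 1, 1 and 0 counts in adherent shCtrl and 9, 5 and 6 in adherent shSigma cells, a pooled ratio of 12.2 (exact 95% counting interval 2.98 to 108). In tumor spheres it stood at 13.6, 11.8 and 12.1 CPM in shCtrl and 1.76, 1.11 and 1.85 CPM in shSigma cells (log2 fold change -2.98, adjusted p = 3.4e-08, edgeR). The sphere groups did not overlap, which held for 66.8% of all genes tested in spheres. Control spheres were the only group above 2 CPM. CHRM5, a muscarinic receptor, was called lower in adherent cells (-1.04, adjusted p = 0.034, edgeR), a call lost by DESeq2 (0.31) and without shSigma replicate 1 (0.18) or 2 (0.15) or shCtrl replicate 1 (0.057), 2 (0.15) or 3 (0.081). Its spheres went the other way, with 1, 0 and 1 counts in shCtrl and 4, 4 and 4 in shSigma cells, and were not tested. The pooled ratio there was 5.73 (exact 95% counting interval 1.28 to 52.8). CHRM4, another muscarinic receptor, was called lower in spheres (-1.12, adjusted p = 0.023, edgeR), a call lost by DESeq2 (0.077) and without shSigma replicate 3 (0.088) or shCtrl replicate 1 (0.074) or 3 (0.076). CHRM5 and CHRM4 each passed the filter on low counts for these calls only through the shCtrl group.

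Chaperones and modulators of nicotinic receptors moved in both directions. RIC3, a chaperone of nicotinic receptor assembly, stood at 0.883, 0.846 and 0.789 CPM in adherent shCtrl and 4.43, 5.48 and 5.88 CPM in adherent shSigma cells (log2 fold change 2.57, adjusted p = 3.4e-05, edgeR). In tumor spheres it stood at 1.17, 1.38 and 1.31 CPM in shCtrl and 4.38, 5.35 and 4.18 CPM in shSigma cells (log2 fold change 1.84, adjusted p = 4.6e-06, edgeR). Within each culture the RIC3 groups did not overlap, which held for 57.9% of all genes tested in adherent cells and 66.8% in spheres. LYPD1, a Ly6 protein that binds nicotinic receptors, stood at 7.14, 7.28 and 8.06 CPM in tumor sphere shCtrl and 0.453, 0.0530 and 0.159 CPM in tumor sphere shSigma cells (log2 fold change -5.02, adjusted p = 7.3e-08, edgeR), and had at most 8 counts in any adherent library. LYPD6B, of the same family, stood at 3.04, 3.64 and 2.72 CPM in tumor sphere shCtrl and 0.302, 0.477 and 0.583 CPM in tumor sphere shSigma cells (-2.78, adjusted p = 2.7e-06, edgeR). Both Ly6 genes passed the filter on low counts only through the control spheres, with 1 to 9 and 6 to 11 counts in the knockdown spheres, and both dropped out of the test once a minimum of 10 counts applied to each library. The control spheres were the highest of the 4 groups for both Ly6 genes, which that filter favors, so nothing is drawn from it.

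**Figure D2:**
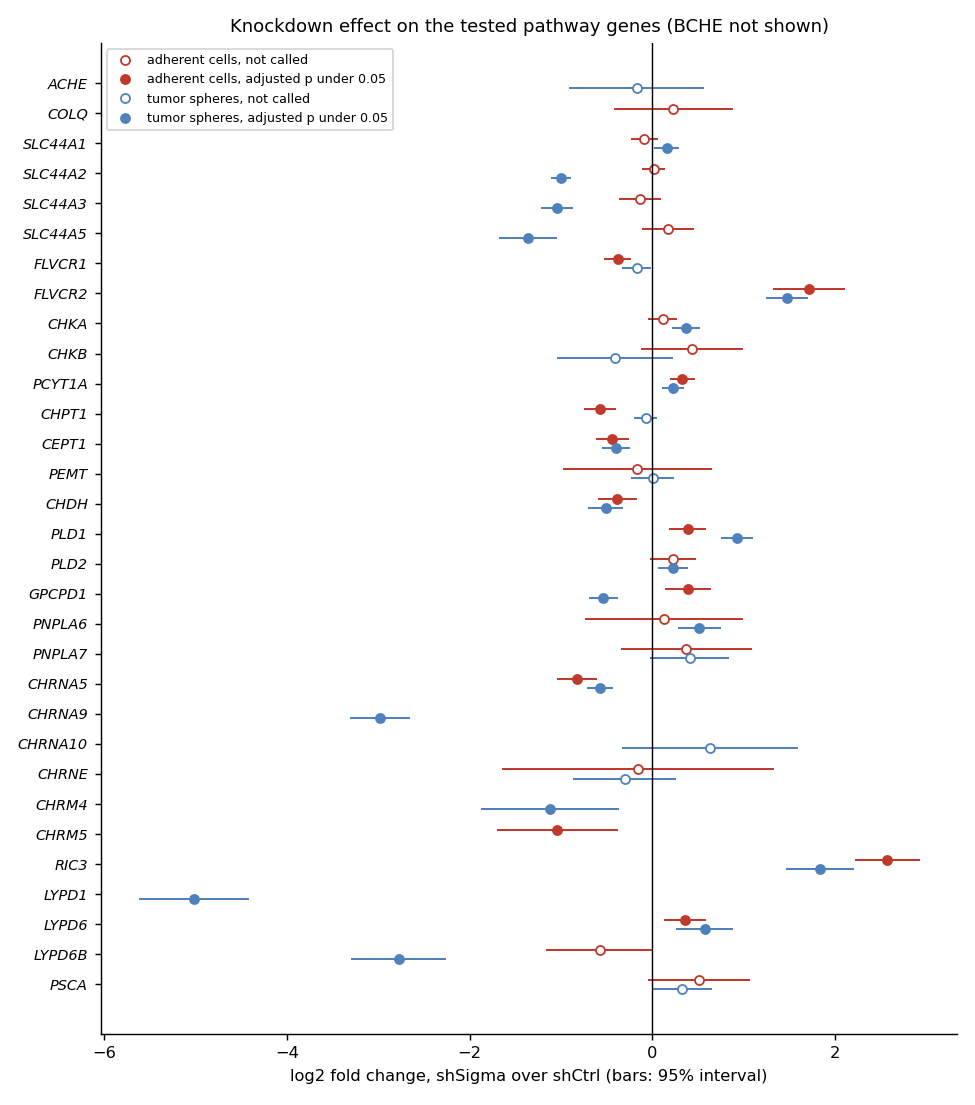
The fitted log2 fold change of shSigma over shCtrl (horizontal axis, bars 95% interval) is plotted for each list gene tested in adherent cells (red) or tumor spheres (blue), with filled points for an adjusted p under 0.05 by edgeR. BCHE is left out because it was chosen by this contrast. LYPD1 at -5.02 and CHRNA9 at -2.98 in tumor spheres lie farthest to the left and RIC3 at 2.57 in adherent cells farthest to the right. LYPD1 passed the filter on low counts only through the shCtrl spheres.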

How the data were processed

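RNA of DU145 cells was measured in 12 libraries, 3 in each of 4 groups, grouped and numbered as the sample labels give them. For the directional libraries the authors took 800 ng of RNA and sequenced 75 nt single-end reads. Per the submitters' processing notes they used STAR 2.6.1c and GRCh38.p12 and deposited raw counts per gene without normalization. The gene annotation, the strand setting and the handling of multi-mapped reads are not given in the sources used here.

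CPM and fold changes were derived from those deposited counts in R 4.3.3, using edgeR 4.0.16 with limma 3.58.1. Libraries were scaled by TMM, and filterByExpr removed genes at a minimum count of 10. Each comparison was fitted on its 2 groups by the quasi-likelihood test with robust estimation (two-sided), with a prior count of 0.125, and p-values were adjusted over every gene in the fit (Benjamini-Hochberg). Fold changes therefore use the scaling of their own fit, and CPM that of all 12 libraries. Calls required an adjusted p under 0.05. The 95% intervals of log2 fold changes use a normal approximation, with the SE derived from the test statistic. They are therefore narrower than the quasi-likelihood test itself would give. Whether knockdown acted differently in the cultures was read from the interaction term with all 12 libraries in the model (spheres minus adherent). Low counts were compared by pooled ratios with exact 95% intervals, which cover counting error only. Replicates of a group differed by more than sampling noise (chi-square per gene 2.73 to 43.9, where counting noise alone gives about 1). An exact permutation test of 3 against 3 libraries cannot go below 0.1 and was not used.

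Coordinates, lengths and overlaps are from GENCODE release 44, which named 26153 of the 28747 identifiers. Promoters are from RefSeq, GRCh38.p14. Named are all members, list genes called with an absolute log2 fold change over 1 or otherwise the called gene of a sublist with the smallest adjusted p, tested neighbors and the 5 genes most like BCHE. The gene that the hairpin targets is not reported here. The members and lists were chosen with earlier results of these data known. Settings tried besides were DESeq2 1.42.0, edgeR with DESeq2 size factors, scaling by the upper quartile, other filters, thresholds and prior counts, 1 fit of all libraries, a replicate block and each library left out. The procedure was checked on simulated counts with the same dispersion for every gene and few changed genes. These do not copy the spread or the share of changed genes here, so the check covers the code only.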

Additional observations from a re-analysis of the deposited data

Results flagged for a closer look

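The knockdown effect, shSigma over shCtrl on the log2 scale, differed between tumor spheres and adherent cells for 12 of the 19 genes named here that entered the interaction test of edgeR, which 28.4% of all genes passed. Most of the 19 had been named because a knockdown effect was called, so the share says nothing about the genes as a group, and each value below is spheres minus adherent cells. For the choline transporters the differences were -1.07 for SLC44A2 (adjusted p = 2.97e-07), -0.97 for SLC44A3 (adjusted p = 1.3e-04) and -1.60 for SLC44A5 (adjusted p = 8.6e-05). In all 3 the sphere groups did not overlap, which held for 66.8% of all genes tested in spheres. The adherent groups overlapped in CPM or were not called.

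For genes of choline use, the difference was 0.44 for CHPT1 (adjusted p = 0.0067), 0.48 for PLD1 (adjusted p = 0.0098) and -0.99 for GPCPD1 (adjusted p = 1.4e-04). GPCPD1 was named because it was called in opposite directions in the cultures, so nothing is drawn from its difference. Its adherent rise was not called in every setting. CHPT1 fell in adherent cells and was not called in spheres, and PLD1 rose more in spheres.

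For receptors and their modulators, the difference was -6.32 for CHRNA9 (adjusted p = 7.4e-06), -6.90 for LYPD1 (adjusted p = 2.2e-04) and -2.26 for LYPD6B (adjusted p = 0.0013). The adherent libraries of CHRNA9 and LYPD1 held at most 9 counts, so the size of these differences depends on the prior count. Both genes passed the filter on low counts only through the spheres. With at least 10 counts required in every library, CHRNA9, LYPD1 and LYPD6B were no longer tested. For RIC3 the difference was -0.80 (adjusted p = 0.034), with adjusted p from 0.026 to 0.16 over the alternatives. The call was lost in 10 of the 12 fits that left out a library, those without adherent shSigma replicate 1 and tumor sphere shSigma replicate 2 being the exceptions.

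For the carboxylesterases, the difference was -1.30 for CES3 (adjusted p = 0.0017) and -0.61 for CES4A (adjusted p = 0.047), the latter with adjusted p from 0.038 to 0.17 over the alternatives and no longer called in 10 of the 12 fits that left out a library, all but those without adherent shSigma replicate 3 or adherent shCtrl replicate 3.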

How the results depend on the processing

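The log2 rise of BCHE kept its direction in every setting run, from 7.80 to 8.36 in adherent cells and 9.89 to 10.63 in tumor spheres with a library left out, and 9.96 in spheres with a prior count of 2. With a replicate block the called list genes, without BCHE, numbered 7 in adherent cells (12 without it), 19 in spheres (20), 10 for the interaction (10), 16 in shCtrl (18) and 10 in shSigma cells (11) between cultures. The numbers were not found to pair the samples, since the deviations of same-numbered samples correlated at -0.46, 0.0023 and -0.73 in adherent cells and 0.036, 0.0071 and -0.045 in spheres, and samples did not all correlate best with their own number. Adherent shSigma replicate 3 correlated at 0.71 with shCtrl replicate 1, and shSigma replicates 1 and 2 at 0.47 and 0.62 with shCtrl replicate 3. What the adherent groups share in this way was not tested. With an absolute log2 fold change over 1 required as well, the counts were 3 and 8 for knockdown in adherent cells and spheres, 5 for the interaction, and 10 in shCtrl and 4 in shSigma cells between cultures. At an adjusted p under 0.01 they were 7 in adherent cells and 6 between cultures in shSigma cells. Leaving out 1 library gave 8 to 11, 18 to 20, 9 to 11, 14 to 19 and 7 to 12 in the same order of comparisons, with 7 without tumor sphere shSigma replicate 1 or 2. The genes most like BCHE kept 3 of 5 with a prior count of 0.5.

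Directions turned for values near 0 that were not called, and the ranges given are over the fits that left out 1 library. SLC44A3 in adherent cells became 0.0014 without shSigma replicate 1, SLC44A1 there 0.026 without shSigma replicate 2, ACHE in spheres 0.14 without shSigma replicate 3 (range -0.54 to 0.14), and the CHRM4 interaction -0.012 without tumor sphere shSigma replicate 2 (range -0.012 to 0.53). Between cultures in shCtrl cells PLD1 became -0.013, -0.073 and -0.037 without adherent replicate 1 or 3 or sphere replicate 1 (range -0.073 to 0.058). NLGN3 became -0.0153 by DESeq2, -0.0147 with its size factors and -0.0105 without a filter, and -0.0660, -0.15, -0.14 and -0.018 without adherent replicate 1 or 3 or sphere replicate 1 or 3 (range -0.15 to 0.15). The cause was not tested.

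The adherent counts of list genes without shCtrl replicate 1 and shSigma replicate 3 together, chosen after seeing the data because they stood apart from their groups, numbered 13. Low counts leave wide intervals for ACHE, CHRNA7, CHRM4 and CHRM5.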

Other observations

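Proteins that share the cholinesterase fold without belonging to acetylcholine breakdown gave a list of 11 genes. In adherent cells 3 of 6 tested were called, where 50.0% of all genes were, and in tumor spheres 4 of 5, where 61.1% were. CES3, a carboxylesterase, stood at 3.34, 5.50 and 5.64 CPM in adherent shCtrl and 14.6, 15.1 and 14.1 CPM in adherent shSigma cells (log2 fold change 1.54, adjusted p = 5.1e-04, edgeR). In tumor spheres it had a log2 fold change of 0.29 (adjusted p = 0.10), called at 0.40 (adjusted p = 0.047) without shSigma replicate 3. CES4A, another carboxylesterase, stood at 2.65, 3.64 and 3.71 CPM in adherent shCtrl and 9.57, 11.1 and 8.49 CPM in adherent shSigma cells (1.49, adjusted p = 4.3e-04, edgeR). In spheres it rose from 5.68, 4.91 and 5.69 CPM to 10.98, 10.9 and 9.32 CPM (0.93, adjusted p = 4.3e-05, edgeR). NLGN3, a neuroligin that binds neurexins and lacks esterase activity, fell in spheres from 2.93, 2.15 and 2.47 CPM to 1.16, 0.900 and 1.17 CPM (-1.22, adjusted p = 4.2e-04, edgeR). Its adherent call (-0.83, adjusted p = 0.012) was lost by DESeq2 (0.093) and without shSigma replicate 1 (0.072) or 2 (0.065) or shCtrl replicate 2 (0.075).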
